A study of Owenia fusiformis with 26 samples.

Results

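A set of 150 genes of the annelid *Owenia fusiformis* combined abundant mRNA in the oocyte with a low level at the gastrula or elongation stage and abundant mRNA again in the mature larva. They were chosen from 26966 genes by these levels. In 3716 genes the mean of both replicates was at least 1000 normalised units in the oocyte and in the mature larva, and in 365 of these both means were also at least 2 times the trough, the lower of the gastrula and elongation means. The 150 genes have the highest ratio of the lower end mean to the trough plus 1, from 3.08 to 19.8. The last gene taken had means of 3564 in the oocyte, 426 at the gastrula, 684 at elongation and 1315 in the mature larva, with a ratio of 3.08. The first gene left out had 1537, 499.9, 547 and 1784, with a ratio of 3.07. The levels were lowered and not lost: the trough mean ran from 73.0 to 22870 units with a median of 474, and in 25 of the 150 genes it was at least 1000.

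The data are RNA-seq of whole, untreated oocytes, embryos and larvae, as a time course of development with 2 libraries at each of 12 stages. Sampling began with oocytes and zygotes and went through cleavage (2-cell, 4-cell and 8-cell embryos, then embryos of 3 and 4 hours post fertilisation, hpf) to the coeloblastula at 5 hpf. Gastrulae were taken at 9 hpf, elongating embryos at 13 hpf, early larvae at 18 hpf and mature larvae at 27 hpf. All were reared in artificial seawater, and no stage carries a mutation or a drug. The study calls the replicates biological, the labels name no parents or cultures for them, and p-values measure the spread between these samples. In whole animals, fewer cells of a type and less RNA per cell cannot be told apart, and every level is relative to the other RNA of its library.

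An oocyte stores mRNA that the mother's ovary made, and the early embryo lives on this store before its own genome is read. As the embryo takes over, much of the maternal mRNA is degraded. Some of the same genes are transcribed later for tasks of the larva, which in this annelid is the mitraria, a swimming and feeding larva with a ciliated band, an apical organ and chaetae.

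Values are the authors' normalised expression, summed over the transcripts of a gene. How they were scaled between libraries is not given in the sources used here. Each read was worth an estimated 0.959 to 1.61 units, for an estimated 22.4 to 37.0 M reads a library. The lowest stage mean of any of the 150 genes, 73.0 units at the gastrula, was therefore far above the value of 1 read. All 150 genes passed the filter on low values that 23934 genes passed. Their oocyte and mature larva levels fixed this in advance, so it says nothing about the trough.

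Over the 150 genes, the median of the stage means was 2925 units in the oocyte and 2844 in the zygote, and it was still 2634 at the 8-cell stage. It was 2478 at 3 hpf, 2215 at 4 hpf and 1601.5 in the coeloblastula. The gastrula had the lowest median, 518, followed by 728 at elongation, 1305 in the early larva and 2511 in the mature larva. These medians show a plateau through cleavage, a low of gastrulation and elongation, and a larval return to the maternal level. Together the genes held 1.77 and 1.86% of all normalised expression in the zygote libraries, 0.442 and 0.463% at the gastrula and 2.12 and 2.15% in the mature larva. Oocyte, gastrula, elongation and mature larva values chose the genes and are given as a description.

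**Figure D1:**
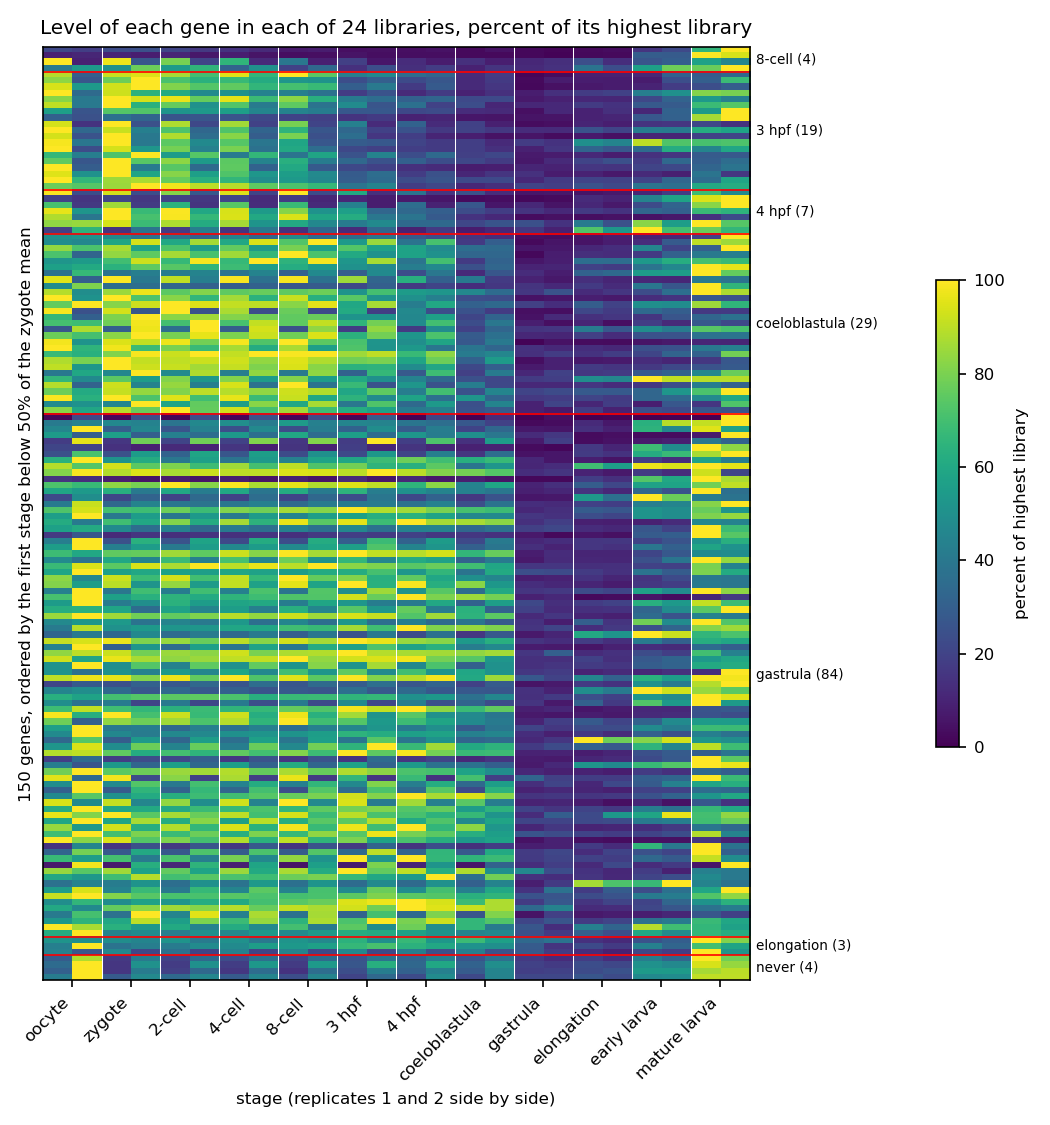
Level of each of the 150 genes (rows) in each of the 24 libraries (columns, replicates 1 and 2 of a stage side by side), as a percent of the gene's highest library, with rows ordered by the first stage whose mean was below 50% of the zygote mean and the number of genes of each order class at the right. The dark columns of the gastrula and elongation follow from the choice of genes. The stage at which a gene first dropped below 50% ranged from the 8-cell stage (4 genes) to elongation (3 genes), and was most often the gastrula (84 genes).

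Scaled to each gene's own zygote mean, the median level was 98.2% at 3 hpf, 88.2% at 4 hpf, 68.4% in the coeloblastula, 19.8% at the gastrula, 26.2% at elongation, 51.4% in the early larva and 100.4% in the mature larva. The 3351 genes that reached 1000 units in the oocyte and mature larva but missed the fold over the trough had medians of 101.5% at 4 hpf, 96.9% in the coeloblastula, 95.4% at the gastrula and 78.9% in the mature larva. The 215 genes past the thresholds with lower ratios lay between, with 92.9% at 4 hpf, 76.6% in the coeloblastula and 34.8% at the gastrula.

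**Figure D2:**
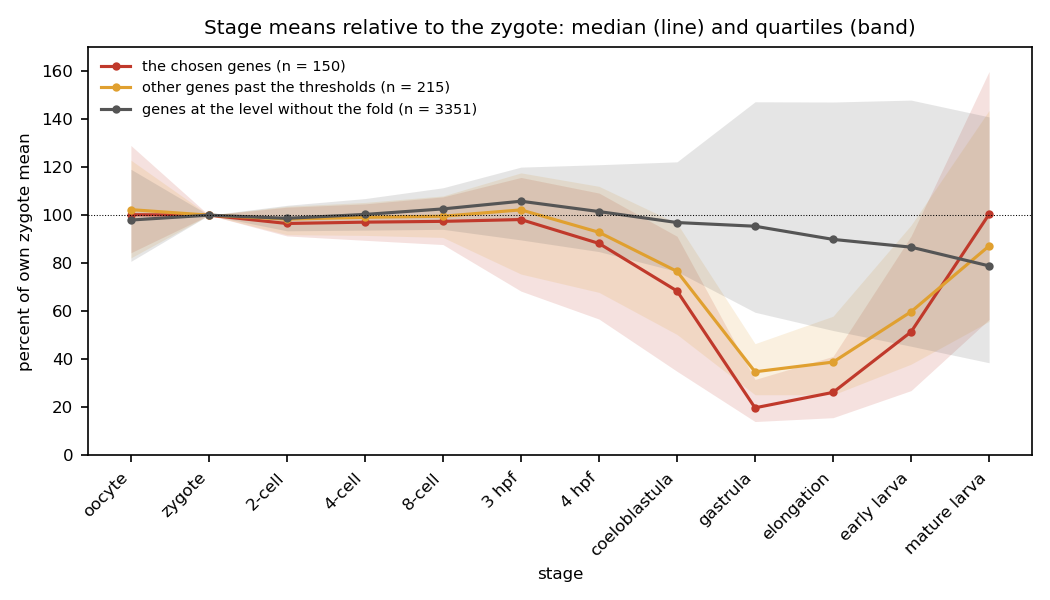
Stage means as a percent of each gene's own zygote mean (y axis) at the 12 stages (x axis), as the median (line) and quartiles (band) over genes, for the 150 chosen genes, the 215 others past the thresholds and the 3351 genes at the same level without the fold. The chosen genes have a median of 68.4% in the coeloblastula, 19.8% at the gastrula and 100.4% in the mature larva.

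The genes did not leave the maternal level at one time. In 4 genes the mean was first below 50% of the zygote at the 8-cell stage, in 19 at 3 hpf, in 7 at 4 hpf, in 29 in the coeloblastula, in 84 at the gastrula and in 3 at elongation, and in 4 it never was. The 30 genes below 50% by 4 hpf had a median of 40.5% at 3 hpf and 20.0% in the coeloblastula. The 84 genes that first dropped below 50% at the gastrula had 112.7% at 3 hpf and 82.9% in the coeloblastula. The 29 genes first below 50% in the coeloblastula lay between these, with 76.6% at 3 hpf and 40.8% in the coeloblastula. At the gastrula the 30 and the 84 genes had medians of 14.0% and 25%. The former came there through a gradual decline in cleavage, the latter mostly within the 4 hours after the coeloblastula. Since these stage means formed the groups, the differences up to the coeloblastula follow from the grouping, and the groups are cuts of a spread of courses.

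The return was spread over stages too. After the trough, 26 genes were first back at 50% of the zygote mean at elongation, 52 in the early larva and 46 in the mature larva, and 26 did not get there. Of the 107 genes with their trough at the gastrula, the median level was 30.4% of the zygote at elongation and 60.9% in the early larva. The 43 genes with their trough at elongation had 29.0% in the early larva and 75.6% in the mature larva. In the mature larva, 16 genes had at least 2 times their oocyte mean, 22 had at most 50% of it and 112 lay within 2-fold. The mature larva was the highest of all 12 stages in 51 genes, the zygote in 30 and the oocyte in 20, so that 1 peak was not shared by the set.

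The early larva was not yet at the mature level. Its mean was a median 53.0% of the mature larva mean over the 150 genes, and 106.9% over the other 3566 genes at the same level in the oocyte and mature larva. In 11 of the 150 genes it was above the mature larva mean. Since the mature larva chose the genes, these shares are a description.

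Both replicates showed the course in most genes. In 134 of the 150 genes each replicate alone had oocyte and mature larva values at least 2 times its lower gastrula or elongation value, and in 146 both libraries of the trough stage lay below all 4 oocyte and mature larva libraries. The means of these same libraries chose the genes, so both counts are largely fixed by the rule and are a description. Choosing 150 genes on replicate 1 alone, 118 (78.7%) also had the 2-fold trough in replicate 2, against 9.40% of the 3648 genes at the level. Choosing on replicate 2, 114 (76.0%) had it in replicate 1, against 8.86% of 3658 genes. Between the sets so chosen and the 150 genes, 104 and 105 were shared.

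Gaps between replicates were more frequent in these genes than in others at the same level, as counted here with no test. The oocyte libraries were more than 2-fold apart in 32% of the 150 genes, against 16.5% of the 3716 genes at the level. In the zygote these shares were 20.0% and 8.58%, and in the mature larva 9.33% and 1.75%. In 19 genes (12.7%, against 4.79% at the level) the replicates were more than 2-fold apart in the same direction at each of the 5 stages from the oocyte to the 8-cell. Replicate 1 was the higher in 10 of these genes and replicate 2 in 9, and the gap was still over 2-fold the same way in 9 of the 19 in the coeloblastula and in 2 in the mature larva. What sets this gap was not tested.

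The first question open to a test was how far the genes had fallen by the end of cleavage, since the rule used neither the zygote nor the coeloblastula. With limma on log2(value + 1) and Benjamini-Hochberg adjustment over 23934 genes, 44 of the 150 genes were lower in the coeloblastula than in the zygote at an adjusted p under 0.05 and 0 were higher, with 2 higher at an unadjusted p under 0.05. Among all genes tested 3.60% were lower and 5.85% higher, and among the 3716 genes at the level 10.2% were lower and 4.92% higher. The log2 fold change was negative in 126 of the 150 genes, with a median of -0.55, against 0.11 over all genes. Of the 215 other genes past the thresholds 22.8% were called lower and 0.465% higher. In these 215, 166 changes were negative, with a median of -0.38, and in the 3351 genes at the level without the fold 1755 were. Both coeloblastula libraries were below both zygote libraries in 78 genes (background 18.4%) and above them in 10 (24.7%). They were below in 106 and above in 19 of the 215 other genes past the thresholds. In the 3351 genes at the level without the fold they were below in 983 and above in 811. The coeloblastula stands between oocyte and gastrula in time, so these counts describe when the decline took place more than whether it did. Without replicate 1 of the coeloblastula, or of the zygote, 29 genes were lower, beside 1.78% and 1.75% of all genes. A fit of these 4 libraries alone called 0 of all 23934 genes in either direction, and so 0 of the 150. Of the 150, 57 were lower at an unadjusted p under 0.05 in that fit. The share of all genes at an unadjusted p was not counted. Such unadjusted counts are therefore a description and no sign of a fall particular to the set.

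Few changes between neighbouring stages of cleavage were called. Between zygote and 8-cell stage limma called 0 of the 150 genes in either direction, as it did over all genes (0% lower and 0% higher), with 8 lower and 1 higher at an unadjusted p under 0.05. From the 8-cell stage to 3 hpf it called 0 as well (background 0% lower and 0.171% higher), with 7 lower and 0 higher unadjusted. These unadjusted counts too have no share of all genes beside them. From 3 to 4 hpf 1 gene fell (0.0334% of all genes lower and 0.606% higher), and 118 of 150 changes were negative, with a median log2 fold change of -0.15. In the 215 other genes past the thresholds 161 changes were negative, with a median of -0.13, and in the 3351 genes without the fold 1811 were. From 4 hpf to the coeloblastula 2 genes fell (0.0794% lower and 1.19% higher over all genes), 146 of 150 changes were negative and the median was -0.38. Of the 215 other genes 197 changes were negative, with a median of -0.27, and of the 3351 genes 2070 were. In this last step both libraries of the later stage were below both of the earlier in 82 genes (background 13.1%) and above in 0 (background 18.0%). They were below in 100 and above in 2 of the 215 other genes, and below in 739 and above in 341 of the 3351. Both steps lie between oocyte and gastrula in time, so the falls follow in part from the rule.

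The 3 genes called in single steps, picked here for that call, carry no name in the files. OFUSG04254 had 1727 and 2015 units at 3 hpf and 823 and 956 at 4 hpf, a log2 fold change of -1.07 (SE 0.17, limma adjusted p = 0.00441). OFUSG10602 had 1225 and 1319 at 4 hpf and 779 and 730 in the coeloblastula, a change of -0.75 (SE 0.17, limma adjusted p = 0.0366). OFUSG19630, at 14671 and 18065 and then 6620 and 9188 units over the same step, changed by -1.06 (SE 0.23, limma adjusted p = 0.0316). In all 3 genes the libraries of the 2 stages do not overlap. With 1 library of the compared stages left out in turn, between 0 and 1 gene was called at each of these steps. The step to 4 hpf had 0 without replicate 1 of 4 hpf or replicate 2 of 3 hpf. The step to the coeloblastula had 1 without replicate 2 of the coeloblastula and 0 without each of the other 3 libraries.

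The second question was where the early larva stood, which the rule did not use either. Against the coeloblastula, limma called 42 of the 150 genes lower and 30 higher. Of all genes tested 18.1% were lower and 29.3% higher, and of the genes at the level 33.2% and 19.6%, so the split of the 150 genes resembled that of abundant maternal genes in general. The median log2 fold change was -0.21, with quartiles of -1.05 and 0.84. Against the zygote, 78 genes were lower and 13 higher, beside 19.2% and 35.4% of all genes and 36.4% and 19.4% of the genes at the level. Here 114 changes were negative, the median was -0.90, and both libraries were below both zygote libraries in 100 genes (background 26.5%) and above in 27 (background 48.3%). Of the other 215 genes past the thresholds 46.0% were lower and 5.58% higher than in the zygote, beside 52% and 8.67% of the 150. In those 215 genes 162 changes were negative, and both libraries were below both zygote libraries in 128 and above in 29. At 18 hpf most of the 150 genes still stood under their zygote level. In time the early larva lies between elongation and the mature larva, and the zygote lies next to the oocyte. These counts therefore follow in part from the rule and describe when the return took place.

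Scaling bears on both early larva comparisons. Rescaling the libraries by TMM (trimmed mean of M-values) moved every early larva against coeloblastula change by -0.37 and every early larva against zygote change by -0.38 on the log2 scale, and the median over all genes from 0.51 to 0.14 and from 0.77 to 0.40. Under TMM 51 of the 150 genes were lower and 21 higher than in the coeloblastula (22.7% and 24.5% of all genes), and 91 lower and 7 higher than in the zygote (23.9% and 30.7%). Without replicate 1 of the coeloblastula 19 genes were higher than in the coeloblastula (24.9% of all genes), and without replicate 1 of the zygote 8 were higher than in the zygote (29.6%).

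Set side by side, the calls up to and after the coeloblastula describe the genes by class. The sequence lower then higher, with both calls, was shown by 17 genes. A further 13 were higher in the early larva without a call before, 38 were lower in the early larva without a call before, and 23 were lower in the coeloblastula with no call after. In 4 genes both steps were lower, and 55 had no call at either. Of the 107 genes with their trough at the gastrula 30 were higher and 14 lower in the early larva than in the coeloblastula, and of the 43 with their trough at elongation 0 were higher and 28 lower. This split uses gastrula and elongation values, as the rule did, and is a description. The joint calls and the split were counted in the chosen genes only, with no share of other genes beside them. Whether other genes at the same level in the oocyte and mature larva show them as often was not tested. Both steps share the coeloblastula libraries, so a high coeloblastula value lowers one change and raises the other.

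**Figure D3:**
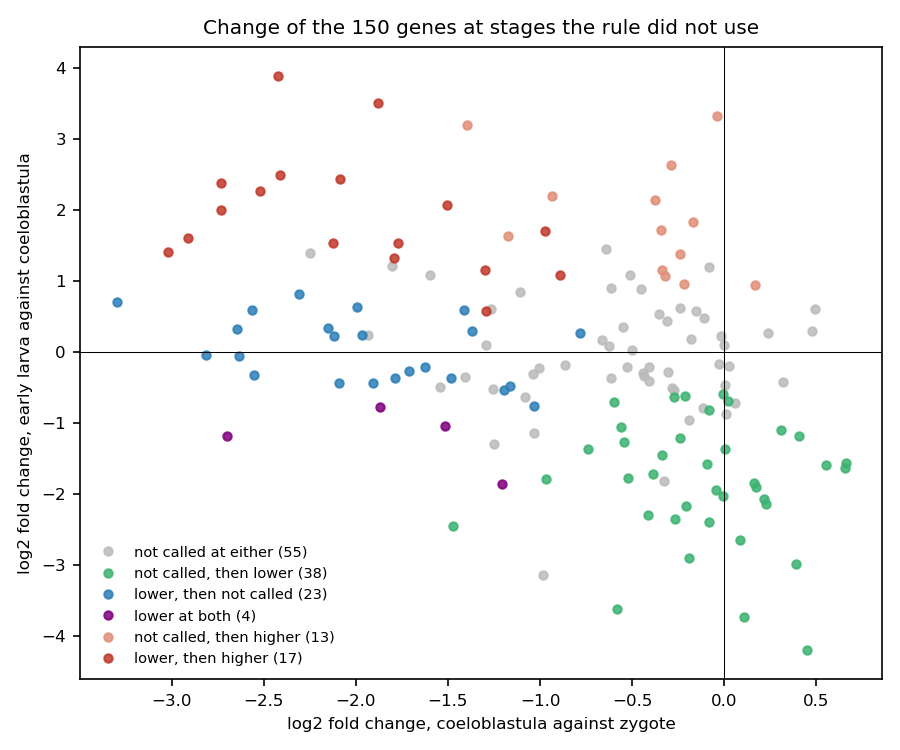
Each point is 1 of the 150 genes, placed by its log2 fold change from zygote to coeloblastula (x axis) and from coeloblastula to early larva (y axis) and coloured by the limma calls at an adjusted p under 0.05, with the number of genes of each class in the key. The 17 genes lower and then higher lie at the upper left, and the 38 genes called lower only in the early larva lie below 0 on the y axis, with uncalled earlier changes from -1.47 to 0.66.

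Names are at hand for few of the genes. The study lists SwissProt best hits in a table on brefeldin A and U0126, drugs that block protein trafficking and ERK1/2 signalling, in other libraries. That list holds 847 genes, 581 of them with a best hit, more than the study counts as differentially expressed. No cut on fold change or p was applied to it here, so not every gene in it need have responded. Of the 150 genes 8 are in that list (5.33%, against 3.53% of the genes tested and 2.34% of the genes at the level), and 7 carry a best hit. A best hit is the most similar protein and not a proven orthologue, and these 7 genes do not stand for the other 143.

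The extracellular matrix supplied 2 of the 7. OFUSG16522 has a best hit to the human collagen alpha-6(VI) chain (CO6A6_HUMAN), a subunit of a microfibrillar collagen. From the 8-cell stage to the gastrula its values were lower than in the zygote. Its libraries held 12802 and 13495 units in the zygote, 4052 and 4414 at the 8-cell stage, 2353 and 2407 at 3 hpf and 1467 and 2653 in the coeloblastula. It had 1163 and 793 at the gastrula, 8631 and 12272 in the early larva and 36524 and 55347 in the mature larva, after 11903 and 10210 in the oocyte. Zygote and coeloblastula libraries do not overlap, nor do those of coeloblastula and early larva. The log2 fold change from zygote to coeloblastula was -2.74 (SE 0.28, limma adjusted p = 8.8e-06) and that from coeloblastula to early larva 2.38 (limma adjusted p = 4.2e-06). Early larva and zygote differed by -0.35 (limma adjusted p = 0.311), which under TMM became -0.73 (limma adjusted p = 0.042).

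OFUSG18570 is most similar to the human transforming growth factor-beta-induced protein ig-h3 (BGH3_HUMAN), a secreted protein that binds collagens and integrins. It kept its level to the end of cleavage, with 4882 and 6227 units in the zygote and 6570 and 5815 in the coeloblastula, which overlap. Then it had 2716 and 1005 at the gastrula, 2540 and 1862 at elongation, 11666 and 12239 in the early larva and 40755 and 30154 in the mature larva, beside 6793 and 11000 in the oocyte. From coeloblastula to early larva it rose by 0.95 (SE 0.34, limma adjusted p = 0.031). That call was lost with any 1 of the 4 libraries left out (limma adjusted p from 0.07 to 0.132) and under TMM, with a change of 0.58.

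Proteins of muscle and actin bundles supplied another 2. OFUSG15046 is most similar to titin of *Drosophila* (TITIN_DROME), a giant elastic protein of the muscle sarcomere. Its highest stage mean was that of the zygote, with 15977 and 17243 units, and it had 5135 and 6992 at 3 hpf, 2038 and 2723 in the coeloblastula and 380 and 790 at the gastrula. In the early larva it had 1710 and 3036 and in the mature larva 4166 and 5111, all below the oocyte libraries of 16181 and 9283. Its change from zygote to coeloblastula was -2.82 (SE 0.36, limma adjusted p = 6.44e-05). The early larva, with a change of -0.05 from the coeloblastula (limma adjusted p = 0.928), overlapped the coeloblastula.

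OFUSG00871 is most similar to rat FHL2 (FHL2_RAT), a LIM-domain protein of striated muscle that links signalling and the cytoskeleton in mammals. It stood at 1747 and 1370 units in the zygote, 258 and 321 in the coeloblastula, 194 and 247 at the gastrula and, as one of the earliest to return, 1034 and 845 at elongation. The early larva had 3759 and 4882 and the mature larva 7965 and 8419, above the oocyte at 1669 and 1315 and above every earlier library. The change to the coeloblastula was -2.42 (SE 0.30, limma adjusted p = 4.57e-05). The rise from there to the early larva, 3.89 (limma adjusted p = 3.72e-08), was the largest of the 150 genes.

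Calcium binding was represented by OFUSG08143, among the genes of highest ratio and most similar to mouse calmodulin-4 (CALM4_MOUSE), an EF-hand protein. It had 1430 and 1351 units in the zygote, 1191 and 1100 at 4 hpf, 839 and 594 in the coeloblastula and only 82.5 and 104 at the gastrula. Elongation had 366 and 193, the early larva 1933 and 2723 and the mature larva 2772 and 3051, beside 1253 and 1349 in the oocyte. No coeloblastula library overlapped a zygote or an early larva library. Its change to the coeloblastula was -0.98 (SE 0.28, limma adjusted p = 0.0383), a call lost with any 1 of the 4 libraries left out (limma adjusted p from 0.0565 to 0.268). The rise of 1.70 from coeloblastula to early larva (limma adjusted p = 0.000113) kept its call with any 1 library of these stages left out, whereas 0.72 against the zygote (limma adjusted p = 0.0396) became 0.34 under TMM (limma adjusted p = 0.333).

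The other 2 named genes act in trafficking and metabolism. OFUSG15882 is most similar to human nostrin (NOSTN_HUMAN), which binds nitric oxide synthase at membranes and takes part in its internalisation. It had 2411 and 1998 units in the zygote, 1342 and 1565 in the coeloblastula, 371 and 325 at the gastrula, 1030 and 762 in the early larva and 1546 and 1465 in the mature larva. Coeloblastula libraries lay between those of zygote and early larva without overlap. The change to the coeloblastula was -0.60 (SE 0.19, limma adjusted p = 0.0682), and the early larva was lower than the coeloblastula by -0.71 (limma adjusted p = 0.00665). The latter call was lost without replicate 2 of the early larva (limma adjusted p = 0.0918) or of the coeloblastula (limma adjusted p = 0.063).

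OFUSG25117, most similar to human triokinase/FMN cyclase (TKFC_HUMAN), an enzyme that phosphorylates dihydroxyacetone and glyceraldehyde, had its trough late. Its values were 1508 and 1389 units in the zygote, 2094 and 1756 in the coeloblastula, 1058 and 1172 at the gastrula and 435 and 371 at elongation. The early larva, at 776 and 917, was still below every library up to the gastrula, and the mature larva had 3080 and 2502. Against the coeloblastula the early larva was lower by -1.18 (SE 0.21, limma adjusted p = 0.000215).

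**Figure D4:**
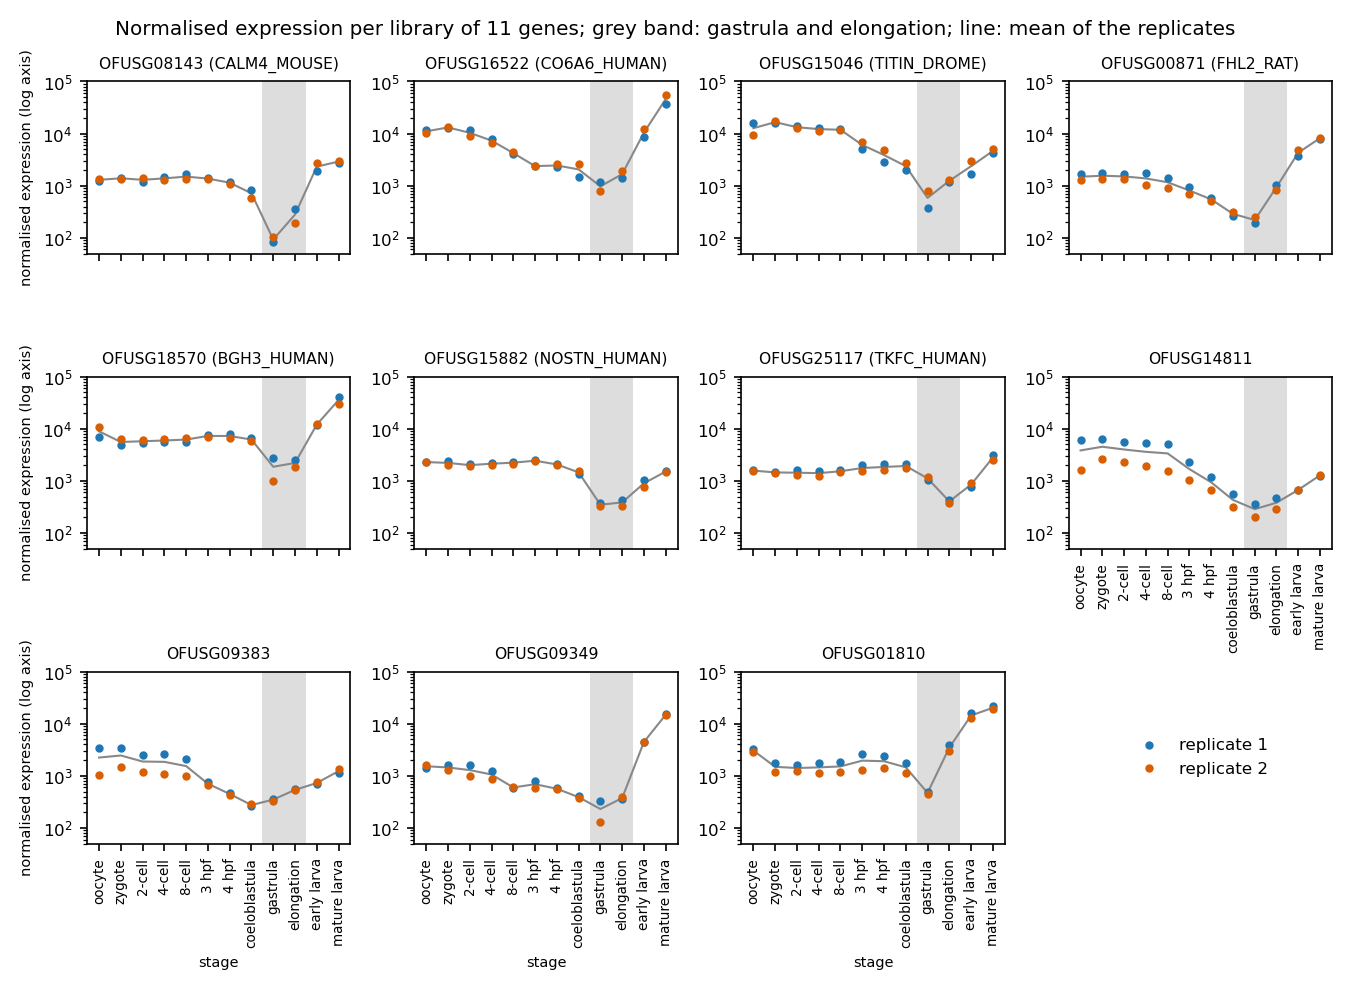
Normalised expression (y axis, log scale, the same in every panel) of 11 genes at the 12 stages (x axis), with a point for each replicate, a line through the stage means and a grey band over the gastrula and elongation. CO6A6_HUMAN, FHL2_RAT and OFUSG09349 declined through cleavage and ended above the oocyte, at up to 55347 units, whereas TKFC_HUMAN held its level to the coeloblastula and was lowest at elongation.

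Among the genes without a name, the 2 largest called falls to the coeloblastula and the 2 largest called rises to the early larva were taken. OFUSG14811 fell most, from 6437 and 2571 units in the zygote to 551 and 309 in the coeloblastula, a change of -3.30 (SE 0.73, limma adjusted p = 0.00766). Its replicates were far apart in the oocyte, at 6018 and 1645, and close in the mature larva, at 1237 and 1318. Without replicate 1 of the zygote or replicate 2 of the coeloblastula the call was lost (limma adjusted p = 0.114 and 0.0727). OFUSG09383 went from 3475 and 1449 to 266 and 285 units, a change of -3.02 (SE 0.55, limma adjusted p = 0.00181), and it too had distant oocyte replicates, at 3467 and 1025. It was lowest in the coeloblastula itself, before the gastrula with 364 and 337. Its rise of 1.40 to 712 and 748 in the early larva (limma adjusted p = 0.047) lost its call with any 1 of the 4 libraries left out (limma adjusted p from 0.118 to 0.143), at a similar size of 1.35 to 1.45.

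OFUSG09349 and OFUSG01810 rose most. OFUSG09349 had 405 and 378 units in the coeloblastula, 4549 and 4394 in the early larva and 15359 and 14403 in the mature larva, a rise of 3.51 from coeloblastula to early larva (SE 0.34, limma adjusted p = 5.53e-07). Its zygote libraries, at 1593 and 1308, were above those of the coeloblastula, with a change of -1.88 (limma adjusted p = 0.00186). OFUSG01810 held 1805 and 1181 in the zygote and 1786 and 1134 in the coeloblastula, then 490 and 454 at the gastrula. It was already at 3996 and 2976 at elongation and at 15829 and 12973 in the early larva, 3.33 above the coeloblastula (SE 0.37, limma adjusted p = 1.82e-06). In both genes the early larva libraries were above all libraries of the oocyte and zygote.

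A gene can return through the transcript that the oocyte held or through another. Of the 150 genes 39 (26.0%) have 2 or more transcripts in the annotation used, against 20.8% of the genes at the level and 14.7% of all genes tested. In 29 of the 39 the same transcript led in the oocyte and in the mature larva, and in 10 (25.6%) it differed, beside 21.8% of the 735 other genes at the level with 2 or more transcripts. In 35 of the 39 genes the transcript that led in the oocyte was by itself back at 2 times its own trough in the mature larva, a count largely fixed by the rule where 1 transcript holds most of the gene sum. Reads that fit several transcripts of a gene are divided between them by estimation, so transcript values are less certain than gene sums.

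The ratio of the most used transcript to the others was tested between zygote and early larva. Limma called 15 of 38 genes tested, beside 25.6% of the 1875 genes tested and 36.0% of the 747 of these at the level. In 13 of the 15 the most used transcript took a smaller part in the early larva, and in 12 its mean share moved by at least 10 percentage points, 10 down and 2 up. The most used transcript was the one with the highest mean share over all 24 libraries. Most of these libraries precede the gastrula, so this choice favours a maternal transcript and a fall by the larva. The direction of the calls is therefore a description. The share of members called was near that of abundant maternal genes in general.

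In FHL2_RAT (OFUSG00871) transcript 2 had 91.4% of the gene's expression in the zygote and 41.0% in the early larva, a log2 ratio change of -3.94 (SE 0.72, limma adjusted p = 0.00142). Transcript 3 had 12.8 and 3.66 units in the zygote, 10.6 and 12.5 at the gastrula, 2153 and 2879 in the early larva and 5406 and 5455 in the mature larva. Both transcripts returned, transcript 2 to 2559 and 2868 units in the mature larva. Counted on the transcript that was most abundant alone, the early larva was 0.31 above the zygote (limma adjusted p = 0.439), whereas the gene sum was 1.47 above it (limma adjusted p = 0.000511).

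In NOSTN_HUMAN (OFUSG15882) the change was -6.93 (SE 0.51, limma adjusted p = 7.41e-07). Transcript 4 held 2336 and 1964 units in the zygote, 145 and 169 at the gastrula and 436 and 521.5 in the mature larva. Transcript 5, listed at 0 and 8.54 in the zygote, had 175 and 111 at the gastrula and 801 and 622 in the mature larva. Already at the gastrula, where the gene sum was lowest, transcripts 4 and 5 were thus at a similar level. In TITIN_DROME (OFUSG15046) transcript 2 had 99.4% in the zygote and 68.3% in the early larva (change -6.54, SE 1.43, limma adjusted p = 0.00425), and transcript 1 reached 1520 and 1676 units in the mature larva from 139 and 47.6 in the zygote.

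In 4 genes, named here after their values were seen, the oocyte's transcript was not back at 2 times its trough in the mature larva. Transcript 1 of OFUSG26197 had 738 and 1097 units in the zygote and 250 and 120 at the gastrula and was listed at 0 in every library from elongation on, while transcript 2 went from 182 and 311 in the zygote to 3800 and 2294 in the early larva. Transcript 1 of OFUSG06351 was listed at 0 in every library up to the coeloblastula and had 781 and 561 in the mature larva, where transcript 2 had 564 and 723 after 4147 and 2981 in the oocyte. Transcript 1 of OFUSG21556 had 6685 and 7427 in the zygote and 105 and 148 in the mature larva, where transcript 3 had 2228 and 2239. In OFUSG21864 transcript 3 went from 1671 and 644 in the zygote to 302 and 270 in the mature larva, and transcript 1 from 113 and 192 at the gastrula to 1631 and 1684 at elongation. These later transcripts were not all new to the embryo: transcript 3 of OFUSG21556 already had 929 and 1900 units in the zygote, and transcript 1 of OFUSG21864 had 259 and 492. In each of the 4 genes the mature larva's level came in part or whole from a transcript other than the one that led in the oocyte.

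**Figure D5:**
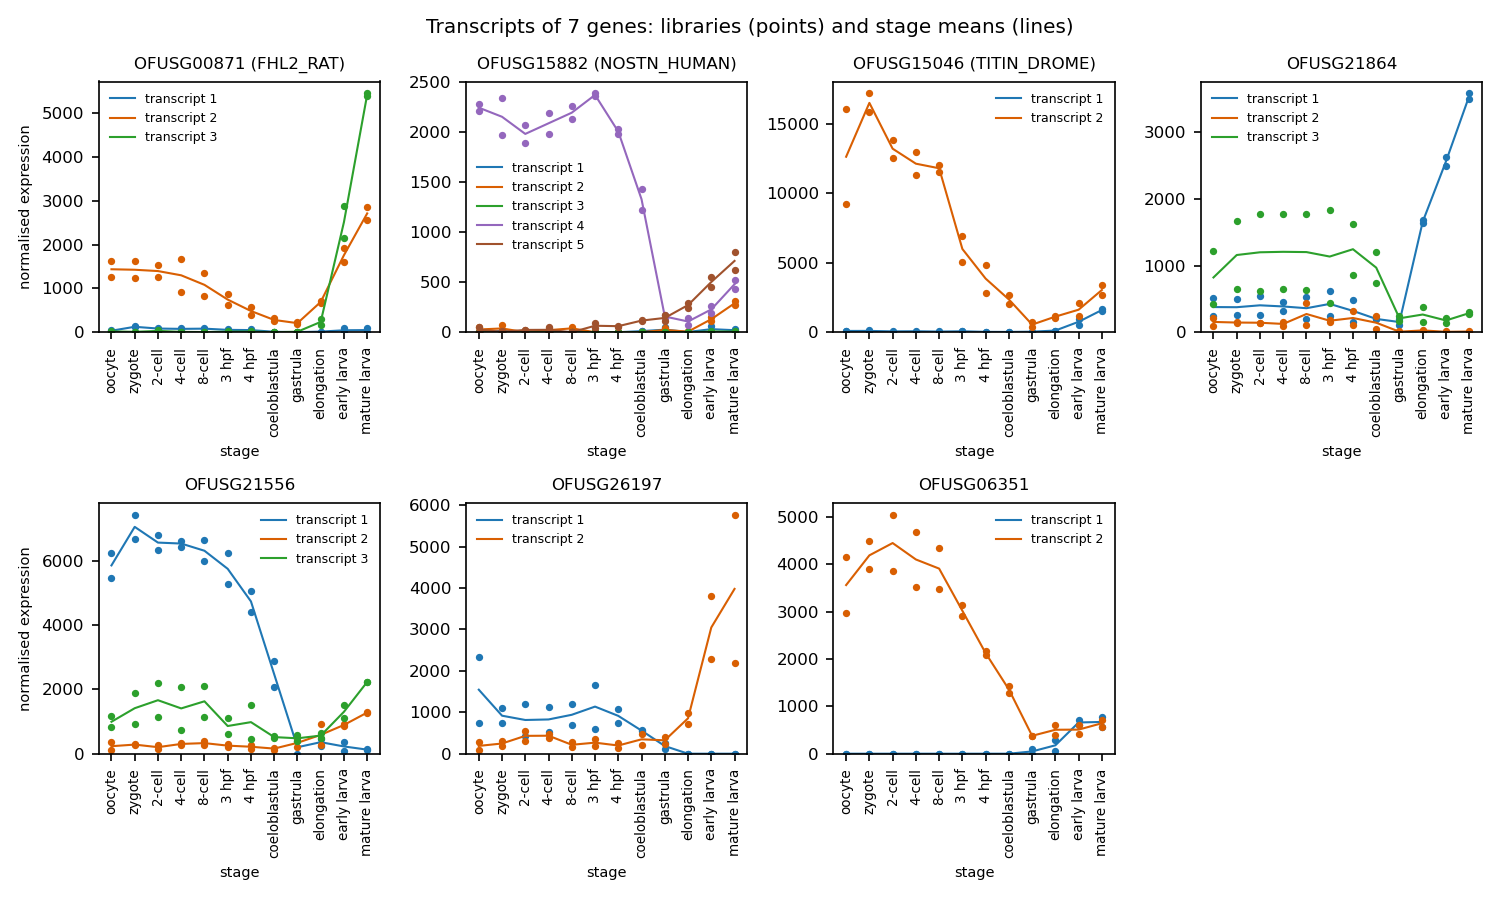
Normalised expression (y axis, from 0, scaled per panel) of each transcript of 7 genes at the 12 stages (x axis), with points for the libraries and lines for the stage means. In FHL2_RAT, NOSTN_HUMAN and TITIN_DROME a transcript that was low in the zygote was among the main ones in the mature larva, and in OFUSG21864, OFUSG21556, OFUSG26197 and OFUSG06351 the oocyte's transcript stayed low, with 302 and 270 units or less in the mature larva for the first 3.

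Gene lists drawn from the same drug table place the named genes among others of their kind. In the list of extracellular matrix and adhesion proteins, 2 of 47 genes are in the set. Of the 47, limma called 5 lower and 9 higher in the coeloblastula than in the zygote (3.60% and 5.85% of all genes) and 1 lower and 27 higher in the early larva than in the coeloblastula (18.1% and 29.3% of all genes), with a median log2 fold change of 2.14, against 0.51 over all genes. In the list of contractile and actin-binding proteins, again with 2 in the set, 5 of 16 genes were lower and 1 higher in the coeloblastula, and 0 lower and 14 higher in the early larva against the coeloblastula, with a median of 5.20, beside the same shares of all genes. TITIN_DROME was 1 of the 2 that were not called higher. None of the 150 genes is in the lists of cilia (22 genes), transcription factors (78), signalling ligands and receptors (58), peptidases (31) or ER-Golgi traffic (27). Of the 27 traffic genes 20 reached 1000 units in the oocyte and mature larva without the trough, but only 3 of the 78 transcription factors and 1 of the 31 peptidases reached that level. Of the 581 genes of the drug table with a best hit 7 are in the set, and genes without a best hit could not be listed. The counts in these lists therefore do not say what the set holds. Since these lists hold only genes of a table on drug responses in other libraries, they do not sample the genome evenly.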

How the data were processed

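RNA-seq of 24 libraries (12 stages, 2 replicates each) was analysed. The authors' deposited values are normalised expression, 1 signal value per transcript and library; the submitters' processing notes name kallisto 0.46.2 and DESeq2 1.30.1, and how the values were scaled is not given in the sources used here. For 26966 genes, values of 31903 transcripts were summed by identifier. Columns named by cell number were matched to 3 and 4 hpf through the study's text and time axis, and 3 columns that match no sample were not used. ATAC-seq peaks were not used, since gene positions were not at hand. None of the 26966 identifiers matched the RefSeq gene table (0 matched), so sequences are not shown.

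Libraries were grouped by their labels. Genes with at least 10 units in at least 2 libraries (23934) were tested with limma 3.58.1 in R 4.3.3 on log2(value + 1), so that fold changes of low genes are understated, in 1 fit of 24 libraries with stage as the only factor and a variance trend, at a Benjamini-Hochberg adjusted p under 0.05. A transcript ratio was log2((t + 1)/(rest + 1)) for genes with at least 100 units in every zygote and early larva library. The fit was tested on simulated data. Reads per unit were estimated from the steps between low values, of which 65.5 to 100.0% came out whole (tolerance 0.1 read). Tables were made with Python 3.11.15 and pandas 2.3.3.

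The members and lists were chosen with earlier results of these data known. Genes named are those with a best hit in the study's tables and, among the others, the 2 largest called falls from zygote to coeloblastula and the 2 largest called rises to the early larva without overlap of libraries. Alternatives were TMM scaling, no filter, pseudocounts of 0.1 and 10, no variance trend, only the libraries compared, a replicate block, each library left out in turn, the most abundant transcript, and other levels and folds in the rule.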

Additional observations from a re-analysis of the deposited data

How the results depend on the processing

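With 1 library of the compared stages left out in turn, the genes lower in the coeloblastula than in the zygote numbered 29 to 40, those higher in the early larva than in the coeloblastula 19 to 27 and than in the zygote 8 to 12, and those lower at 4 hpf than at 3 hpf, or in the coeloblastula than at 4 hpf, 0 to 1 each. A lone library is then assumed to vary like the other stages. Fitting only the libraries of zygote and coeloblastula left 0 genes lower, and 0 of all 23934 genes called. TMM scaling gave 1 gene higher in the coeloblastula and 7 higher in the early larva than in the zygote (5.84% and 30.7% of all genes). No filter on low values, and a pseudocount of 0.1, each gave 1 gene higher in the coeloblastula (5.33% and 5.49% of all genes). Without the variance trend 0 genes were lower in the coeloblastula than at 4 hpf (0.0418% of all genes). The cause was not tested.

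Deviations of same-numbered libraries correlated over 0.1 in 57 of 66 pairs of stages (0.0392 to 0.692), a hint that numbers share an origin. Between stages from the oocyte to the coeloblastula the correlations ran from 0.409 to 0.692. The pairs at or under 0.1 each set 1 of these stages against a larva. The labels name no shared origin, so the block stayed an alternative, and the main fit leaves this pairing out of the cleavage comparisons. With a replicate block 57 genes were lower and 2 higher in the coeloblastula than in the zygote (6.2% and 9.09% of all genes). At the 8-cell stage 1 was lower than in the zygote (0.046%), and in the coeloblastula 8 were lower than at 4 hpf (0.318%). In the early larva 51 were lower and 39 higher than in the coeloblastula (21.6% and 34.5% of all genes). Against the zygote 93 were lower and 18 higher (22.5% and 40.8%). The block thus raised the calls over all genes as well, in the first comparison from 3.6% lower and 5.85% higher.

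Asking 500 or 2000 units in the rule gave 608 or 205 genes, and a 3-fold trough gave 162, against 365. Of the 150 genes with the highest ratio, 92 and 80 were shared with the set at 500 and 2000 units and 126 under TMM.

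The named genes had 37 changes tested, and of their 424 values under alternatives 368 kept direction and call, 47 lost the call, 2 gained it and 7 changed sign. The sign changed with 1 library left out for OFUSG18570 (-0.011 to 0.34) and OFUSG01810 (-0.36 to 0.29) from zygote to coeloblastula, for OFUSG15046 from coeloblastula to early larva (-0.46 to 0.37) and for the transcript ratio of OFUSG08143 (-0.80 to 0.95), none of them called.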
